A study of Mus musculus with 16 samples.

Results

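The genomic form of MUNC keeps an intron of 565 residues that the spliced form lacks, and the chemical probing of that intron is described here. The deposited sequences of the 1083-residue genomic RNA and the 518-residue spliced RNA are identical except for this insert, which can be placed in 3 ways with an equal match. The placement that starts with GU and ends with AG was used, so the intron lies between residues 130 and 696 of the genomic RNA and makes up 565 of its 1083 residues. Residues of the intron are numbered here from 1 at its first residue, and exon residues by their place in the spliced RNA. MUNC is a long non-coding RNA that RefSeq (GRCm38.p6 table) lists as a synonym under Gm45923, next to Myod1, which encodes the myogenic factor MyoD.

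The study probed the RNA by SHAPE-MaP with 5NIA, a small electrophile that acylates flexible riboses and leaves adducts that reverse transcriptase reads as mutations. All groups came from C2C12 mouse myoblasts labelled PAX7 NEG. Of the 16 libraries, 4 are of genomic MUNC, all from cells that overexpressed the genomic form, and they make 1 pair per environment. In the in-cell pair, living cells received 25 mM 5NIA or the solvent DMSO, and in the cell-free pair RNA extracted from such cells did. The spliced RNA, overexpressed in the same way, had 2 replicate pairs per environment and serves here as a reference for the exons. The amplicons hold MUNC sequence only, so markers of the myoblasts were not measured, and RNA from the introduced copies and from the cells' own gene cannot be told apart. With 1 library pair per environment the genomic RNA has no replicates and no test was possible. Errors of rates and reactivities below cover counting alone, and intervals of shares and areas are over residues of 1 RNA.

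An intron is bounded by a 5′ splice site, which begins with GU, and a 3′ splice site, which ends in AG and is preceded by a pyrimidine-rich stretch and a branch-point adenosine. The spliceosome recognises these elements largely as single-stranded RNA, so their pairing state is of interest in a transcript that retains the intron. Purine repeats such as GA repeats can pair with stretches rich in uridine and cytidine, and because both are repetitive such a duplex can form in many registers.

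The sequences that the results turn on are the ends of the intron, its purine run with the pyrimidine-rich block it pairs with in the model, and a long-range helix with exon 2. At the 5′ splice junction, capitals mark the first 6 residues of the intron.
5′ splice junction: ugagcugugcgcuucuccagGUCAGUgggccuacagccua
At the 3′ splice junction, capitals mark the match to UACUAAC and the final AG.
3′ splice junction: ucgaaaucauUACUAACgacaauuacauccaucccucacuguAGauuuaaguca
The purine run fills residues 216 to 358 with 143 A or G residues in a row, and capitals mark the GA repeat at 218 to 273.
purine run: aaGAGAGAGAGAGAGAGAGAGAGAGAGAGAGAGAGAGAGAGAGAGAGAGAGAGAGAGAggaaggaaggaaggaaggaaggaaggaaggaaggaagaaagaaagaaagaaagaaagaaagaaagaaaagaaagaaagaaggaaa
The partner block lies at residues 152 to 210, and capitals mark its 35 residues whose summed pairing probability in the deposited model was at least 0.9.
partner block: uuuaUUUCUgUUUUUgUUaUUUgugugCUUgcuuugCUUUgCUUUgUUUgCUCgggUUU
The long-range helix joins residues 367 to 385 of the intron to residues 402 to 418 of exon 2, and capitals mark residues in a pair between the arms with a probability of at least 0.5.
intron arm: GCACAaGUGGUUUgAAGUG
exon 2 arm: CACUUAAACCACUGUGC

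The intron is rich in purines, with 196 A, 160 G, 119 U and 90 C. Its residues were read at an effective depth of 71304 to 339390 in each library. Reactivity, the authors' normalised score for the 5NIA rate minus the DMSO rate, was available at 560 of the 565 intron residues cell-free and at 561 in cells. The residues without one had DMSO mutation rates of at least 5%. At A269, in the GA repeat, the DMSO rate was 55.5% cell-free and 63.4% in cells and the 5NIA rate 53.5% and 55.7%. At A276, A311 and C466 the DMSO rates ranged from 6.47% to 11.5% over both environments and the 5NIA rates reached at most 13.7%. G95 had a DMSO rate of 5.66% cell-free, where it has no reactivity, and of 4.26% in cells, where its reactivity was 0.505 (SE 0.128).

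The cell-free 5NIA library of amplicon 1, which alone covers the intron up to residue 473, stood apart from the other libraries. Cell-free, 172 of 560 intron residues (30.7%) had a 5NIA rate below their DMSO rate, beside 20.6% of all genomic residues; in cells 11 of 561 did, beside 1.94%. At 78 of the intron residues the cell-free 5NIA rate was less than 0.25 of the DMSO rate, and at 0 in cells. The last 92 residues of the intron were read from both amplicons and allow a check at the same residues. Cell-free, amplicon 1 had 31 of the 92 residues below DMSO and amplicon 2 had 3. The log2 ratio of the amplicons' 5NIA rates had an SD over residues of 2.33 cell-free and 0.32 in cells, while that of the DMSO rates was 0.46 and 0.47. Exon 1 was also read from amplicon 1 only. The log2 ratio of its cell-free 5NIA rates to those of the spliced RNA had an SD of 1.83 against replicate 1 and 2.10 against replicate 2, whereas the spliced replicates differed from each other with an SD of 0.74. The DMSO rates of exon 1 varied against the spliced RNA too, with SDs of 1.19 and 0.87. For exon 2 residues read from amplicon 2 alone, the SDs of the 5NIA ratios were 0.65 and 0.72 and those of the DMSO ratios 0.77 and 0.80. Cell-free values at intron residues 1 to 473 rest on that library, and its part in the results for them was not tested.

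In the overlap, reactivities from both amplicons correlated across residues with a Pearson r of 0.786 cell-free and 0.945 in cells. These are correlations over neighbouring residues of the same RNA and are given as a description. Amplicons were counted as different at a residue when the reactivities were 0.5 or more apart and also further apart than the sum of the 95% margins of both profiles, which is the size rule used throughout. Cell-free, 17 of 92 intron residues passed it, beside 19.1% over the whole overlap, with amplicon 1 higher at 9 and lower at 8. In cells 3 of 92 passed, beside 5.10%. The largest cell-free differences were at A521, A514 and C484, and in each case amplicon 1 was the higher. A514 lies in the loop of a hairpin described below, where merged reactivity was 2.48 cell-free and 1.46 in cells. C484 had a merged reactivity of 0.764 cell-free and 0.069 in cells, but cell-free it was 1.09 (SE 0.016) from amplicon 1 and 0.068 (SE 0.008) from amplicon 2.

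**Figure D1:**
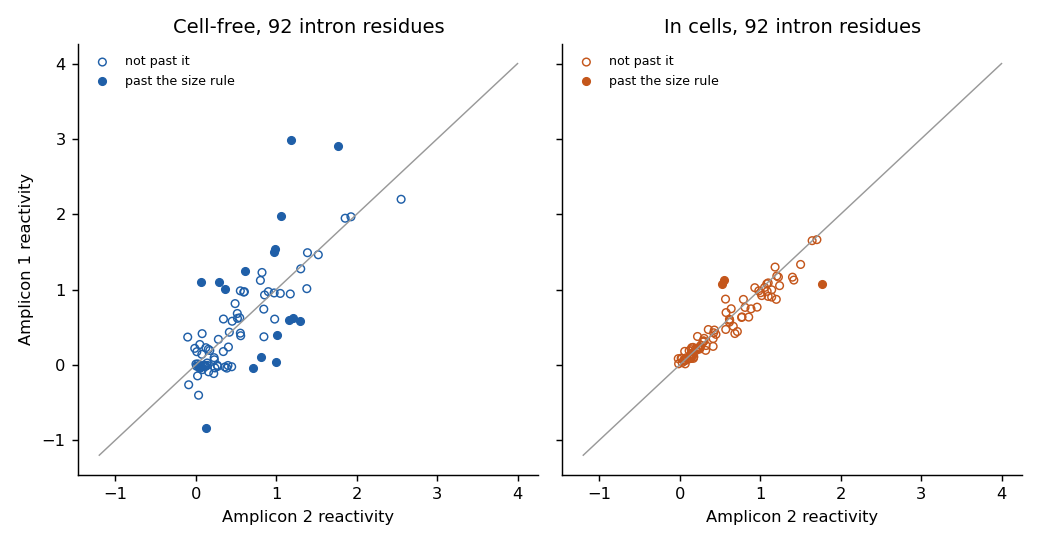
Normalised reactivity of the 92 intron residues covered by both amplicons, amplicon 2 on the horizontal and amplicon 1 on the vertical axis, cell-free at left and in cells at right. Filled points passed the size rule (17 cell-free, 3 in cells), and the line marks equal values; cell-free points scatter widely about it and in-cell points lie close to it.

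Mutation rates over the whole intron were higher cell-free than in cells. The mean 5NIA rate was 1.43% against a DMSO rate of 0.365% cell-free, a difference of 1.068 percentage points (95% counting interval 1.065 to 1.070), and 0.661% against 0.318% in cells, a difference of 0.343 percentage points (0.341 to 0.345). Over residues with a reactivity in both environments, the rate difference was 3.04 times larger cell-free in the intron, 4.09 times in exon 1 and 4.26 times in exon 2. The authors' factor was 38.2 for the cell-free and 150 for the in-cell profile. The normalised score therefore removes most of this gap in the exons and reverses it in the intron. Mean reactivity in the intron was 0.411 cell-free and 0.531 in cells. The means were 0.398 and 0.383 in exon 1, and 0.526 and 0.483 in exon 2. On that scale the median reactivity of the intron was 0.187 cell-free and 0.397 in cells, whereas exon 2 had 0.303 and 0.306 and exon 1 had 0.182 and 0.237. A reactivity of at least 0.85, taken as high, was reached by 94 of 560 intron residues cell-free (16.8%, 95% Wilson interval 13.9% to 20.1%), beside 18.4% of all genomic residues. In cells 127 of 561 reached it (22.6%, 19.4% to 26.3%), beside 21.4%.

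Adenosines carried most of the signal. Their median reactivity in the intron was 0.485 cell-free and 0.775 in cells. Of 193, 60 were high cell-free and 84 in cells. Guanosines had medians of 0.110 and 0.354. Uridines had 0.031 and 0.200. Cytidines were lowest, with medians of 0.018 and 0.117, and 0 of 89 were high in either environment. The base order A, G, U, C was the same in both environments.

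**Figure D2:**
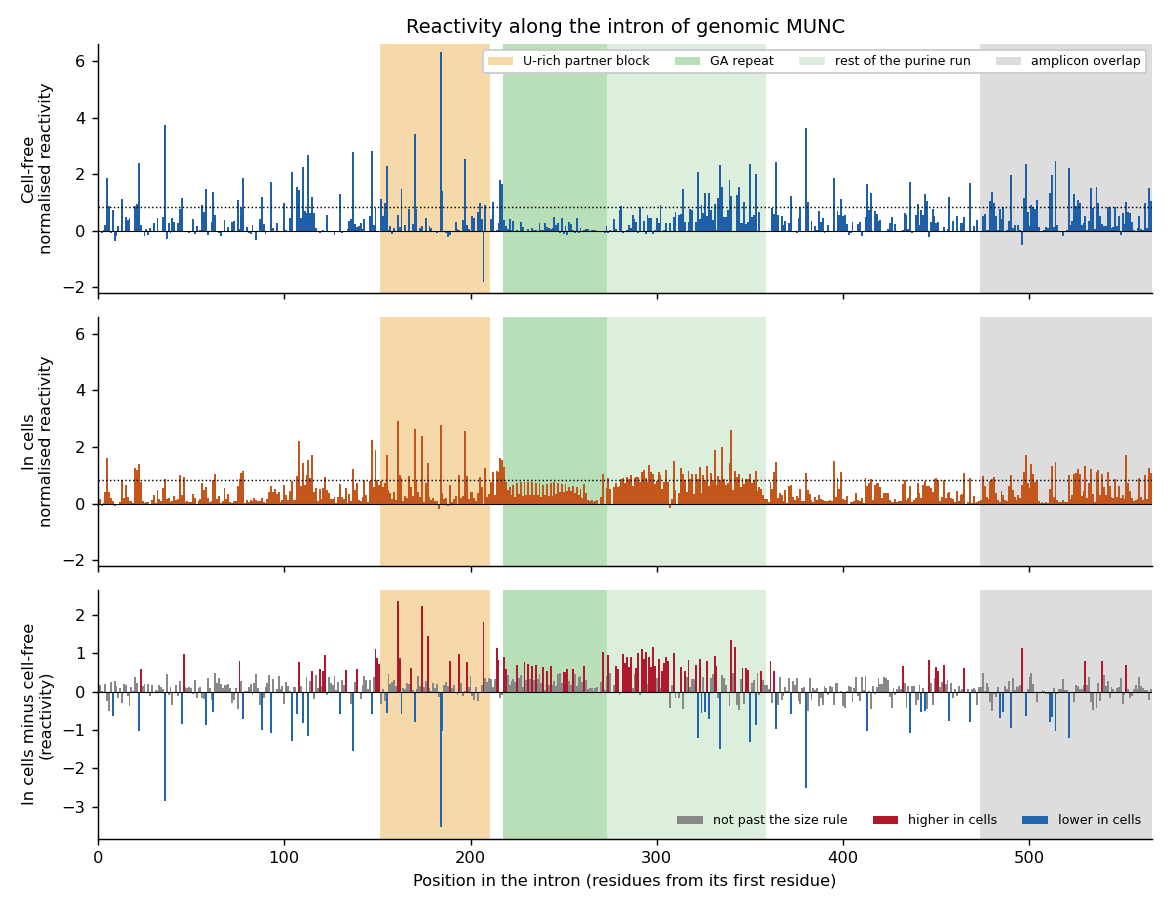
Normalised reactivity at each residue of the intron, cell-free (top) and in cells (middle), with the high-reactivity threshold of 0.85 dotted, and the in-cell minus cell-free difference (bottom), in which red and blue bars passed the size rule. Shading marks the partner block, the GA repeat, the rest of the purine run and the amplicon overlap; red bars are dense over the purine run, where 53 residues were higher and 7 lower in cells.

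Between the environments, 134 of 560 intron residues passed the size rule (23.9%), beside 18.7% of all genomic residues. Reactivity was higher in cells at 89 and lower at 45; over all genomic residues 10.7% were higher and 7.98% lower. The balance depended on the size asked for: with a difference of at least 1 it was 15 higher and 17 lower, and after scaling to an equal mean it was 78 and 56. In exon 1, which shares amplicon 1, 8 of 105 were higher and 13 lower, and in exon 2 13 of 362 were higher and 24 lower. In the amplicon overlap 12 of 92 intron residues passed the rule between environments, fewer than the 17 of 92 that passed it cell-free between amplicons. Pearson's r between environments was 0.647 over the intron, 0.753 over exon 1 and 0.820 over exon 2, as a description over residues.

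The residues higher in cells lay mainly in the purine run. It held 53 of the 89, and 7 of its 140 measured residues were lower. The partner block added 9 higher and 5 lower of 59. Over the 361 other intron residues the numbers were 27 higher and 33 lower, and over those of them read from amplicon 1 only, 23 higher and 25 lower of 269. Of the 53 purine-run residues higher in cells, 14 had a cell-free 5NIA rate below their DMSO rate and 39 did not. The unscaled rate difference was larger in cells at 65 of all 140 residues of the run (46.4%), beside 42.7% of the intron and 30.0% of all genomic residues. In exon 1, also read from amplicon 1 only, the share was 45.7%, near that of the run, and in exon 2 it was 5.80%. The mean of the unscaled rate difference was 2.05 times larger cell-free in the run and 3.73 times over the 361 other residues. The median reactivity of the purine run was 0.227 cell-free and 0.726 in cells, and that of the other 361 residues 0.190 and 0.267. These medians are over unlike bases, since the run holds A and G only. Over the intron, in-cell medians were 0.775 for A and 0.354 for G, against 0.200 for U and 0.117 for C. The part of base composition in the contrast was not tested.

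In the GA repeat reactivity was low cell-free. Its median reactivity was then 0.041 over 55 residues, from -0.145 to 0.488, and 0 of 55 were high. In cells the median was 0.429, from -0.043 to 1.29, and 2 of 55 were high. The ranges overlap, but 16 residues passed the size rule upward and 0 downward. On the unscaled rates, the mean difference over these 55 residues came to 0.258 cell-free and 0.318 in cells, in percentage points. With A269, whose 5NIA rates were below its DMSO rates, it was 0.217 and 0.175, so the order of the environments rests on leaving that residue out. By residue, the rate difference was larger in cells at 36 of 55 (65.5%), against the same background of 30.0%. Other parts read from amplicon 1 only were above that background. The share was 49.5% in the intron before the repeat, 39.1% between the repeat and the overlap and 45.7% in exon 1. On these unscaled rates the environments differed more at guanosines, whose mean was 0.084 cell-free and 0.214 in cells, while that of adenosines was 0.437 and 0.426. On the reactivity scale the median rose more at adenosines, from 0.111 to 0.699, than at guanosines, from -0.004 to 0.305. In cells the repeat alternated: the adenosine was above the guanosine before it in 25 of 27 GA units, with medians of 0.699 for A and 0.305 for G. Cell-free the adenosine was above in 19 of 27, with medians of 0.111 and -0.004. In-cell reactivity was higher over the first 28 residues of the repeat, with a median of 0.628, than over the last 28, with 0.411, which include A269 with its high DMSO rate.

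The rest of the run is made of GGAA units and then of GAAA units. In the GGAA repeat at residues 274 to 309, the median was 0.212 cell-free and 0.867 in cells, and 23 of 35 residues were higher and 0 lower in cells. Guanosines there went from a median of 0.003 to 0.760 and adenosines from 0.349 to 0.932. From residue 310 to 358 the median was 0.571 cell-free and 0.854 in cells, with 16 and 25 of 48 residues high, and 14 of 48 residues were higher and 7 lower. On the unscaled rates the order was the other way. The mean difference of the GGAA repeat was 0.637 cell-free and 0.557 in cells, in percentage points. From residue 310 to 358 it was 1.95 and 0.598. Of the 37 residues higher in cells after the GA repeat, 21 had a larger unscaled rate difference in cells. A340 was among the 5 largest rises of the intron, from 1.24 (SE 0.017) to 2.60 (SE 0.049). G334 was among the 5 largest falls, from 2.33 (SE 0.023) to 0.840 (SE 0.031). In the model, 10 of the 85 residues after the GA repeat were paired, against 42 of the 56 in the repeat.

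**Figure D3:**
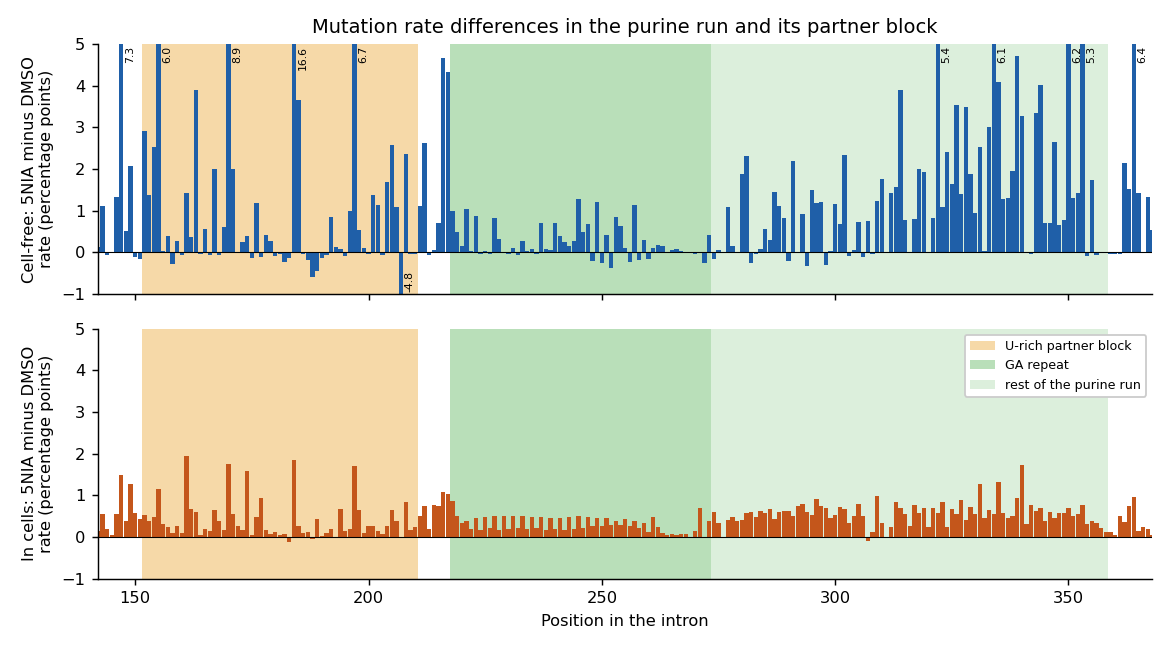
Difference between 5NIA and DMSO mutation rates, in percentage points, at each residue from the partner block to the end of the purine run, cell-free (top) and in cells (bottom), on equal axes; bars that leave the axis carry their value. Cell-free, the mean over the GA repeat was 0.258 percentage points, against 1.40 in the rest of the run and 1.15 in the partner block; in cells the repeat carried alternating bars with a mean of 0.318, against 0.580 and 0.412.

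The pairing model deposited for the cell-free genomic RNA joins the GA repeat to the partner block. Of the summed pairing probability of the repeat, 37.8 pairs in all, 99.8% fell in that block. The probability was shared among registers: a residue of the repeat had a median of 3 partners at a probability of at least 0.05 and up to 4, and the highest probability of any pair was 0.564. Hence 42 of the 56 residues were paired in sum but 6 had a pair of at least 0.5. The mean pairing entropy of the repeat was 1.79 bits per residue, against 0.810 over the intron and 0.492 over exon 2. On the other strand, the 35 well-paired residues of the partner block had a median reactivity of 0.011 cell-free and 0.267 in cells, and the other 24 had 0.491 and 0.657.

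Several of the most reactive residues of the intron interrupt the partner block. U184 had the highest cell-free reactivity of the intron, 6.32 (SE 0.043), with a 5NIA rate of 17.6% against 1.04% in DMSO. In cells it was 2.78 (SE 0.080), the largest fall. A170 was high in both, at 3.40 and 2.62. G197 had 2.54 and 2.57, a difference within the errors. In contrast, G161, G174 and U177 were among the 5 largest rises. G161 went from 0.544 (SE 0.028) to 2.91 (SE 0.101), the highest in-cell value of the intron, although its DMSO rate of 3.81% cell-free and 1.65% in cells was itself high. G174 went from 0.153 (SE 0.008) to 2.40 (SE 0.058). U177 went from -0.038 (SE 0.003) to 1.43 (SE 0.047). The fifth large rise, at G207, was from -1.82 (SE 0.021) to 0.005 (SE 0.104). Its 5NIA rate was 0.046% cell-free, under a DMSO rate of 4.82%, and both rates were 2.33% in cells. Of these 7 residues U184 had the highest summed pairing probability, 0.167, and all lie between stretches marked above as well paired.

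Large falls outside the purine run and the partner block were at A36, A137 and G380. A36 fell from 3.72 (SE 0.032) to 0.867 (SE 0.036) and A137 from 2.77 (SE 0.026) to 1.23 (SE 0.039). U147, with 2.80 cell-free and 2.23 in cells, was high in both. These residues had DMSO rates of at most 0.226%.

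At the 5′ splice site, G1, U2 and C3 had low reactivity in both environments. G1 had -0.021 (SE 0.006) cell-free and 0.162 (SE 0.027) in cells, U2 -0.075 and -0.066, and C3 0.023 and 0.027. A4 had 0.193 and 0.404. G5 was highly reactive, at 1.86 (SE 0.025) cell-free and 1.62 (SE 0.052) in cells. U6 had 0.887 and 0.396. In the model the last 2 residues of exon 1 and the first 3 of the intron pair with residues 8 to 12 of the intron, with a mean probability of 0.632, which leaves residues 4 to 7 as a loop. Median reactivity of that stem was 0.001 cell-free and 0.020 in cells, and that of the loop 0.540 and 0.400.

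The 3′ end was reactive in both environments. G562 had 0.986 and 1.02, U563 0.105 and 0.152, A564 1.50 (SE 0.015) and 1.28 (SE 0.029), and G565 1.04 (SE 0.013) and 1.10 (SE 0.029). From amplicon 2 alone the median of these 4 residues was 0.888 cell-free and 1.02 in cells. In the model G562, U563 and G565 counted as paired, with summed probabilities of 0.639, 0.592 and 0.714, and A564 had 0.010. The pairing of G565 was mostly in a weak stem that pairs it and the first 2 residues of exon 2 with exon 2.

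The intron holds UACUAAC, which is the branch-point sequence of budding yeast introns and close to the mammalian consensus, once. Read on the RNA strand, it occurs at 1 of the 1077 windows of its length in the genomic RNA, and the adenosine before its last base, A537, lies 28 residues before the end of the intron. The 27 residues after the match are 59.3% C or U, against 37.0% of the intron. A match is a description and does not show that the site is used. The match was mostly unpaired in the model, with a mean summed probability of 0.079, and reactive: its 7 residues had a median of 0.815 cell-free and 0.726 in cells. A537 had 0.981 (SE 0.012) and 1.20 (SE 0.029), and A536 1.55 and 1.12. U535 was low in both, at 0.052 and 0.057. From amplicon 2 alone A537 had 1.30 and 1.24, and from amplicon 1 alone 0.586 and 1.05. Cell-free, A537 passed the size rule between amplicons. U532 of the match did so too, with -0.038 from amplicon 1 and 0.717 from amplicon 2. The median of the match was 0.586 cell-free and 0.629 in cells from amplicon 1, and 0.717 and 0.769 from amplicon 2.

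In all, the intron had 52.2% of its residues paired in the model (295 of 565), against 62.9% of exon 1 and 58.4% of exon 2 without their primer sites. At a probability of at least 0.5 it had 58 intron-intron and 56 intron-exon pairs, of which 49 were with exon 2 and 7 with exon 1; there were 111 exon-exon pairs. No listed pair spans more than 599 residues. Paired and unpaired residues differed in reactivity. Cell-free, medians were 0.011 for paired and 0.501 for unpaired residues, and an unpaired residue had the higher reactivity with a chance of 0.766 (area under the ROC curve, 95% interval 0.726 to 0.805). The labels tie the model to the cell-free data, so this value is a description. In-cell reactivities belong to other libraries, and there the area was 0.823 (0.787 to 0.858), with medians of 0.190 and 0.747. Within the GA repeat the area was 0.685 (0.513 to 0.856) cell-free and 0.547 (0.369 to 0.725) in cells, and within the partner block 0.629 (0.475 to 0.784) and 0.673 (0.522 to 0.824). The cell-free and in-cell intervals of the repeat overlap, and its residues are part of the intron. These intervals are over neighbouring residues of 1 library pair, so the areas are a description and the environments were not compared by a test.

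There were 11 intron-intron helices of at least 3 stacked pairs. The 5 longest, with ties in length settled by mean probability, are all hairpins and are shown because they give each stem and loop its own reading. Capitals mark the paired arms.
hairpin 456 to 474: GGUGCACcuacuGUGUGCU
hairpin 505 to 520: GGAAGCaauaGCUUCC
hairpin 389 to 405: CCUUGGagauaCCAGGG
hairpin 69 to 84: CGCUCCagaaGGGGUG
hairpin 101 to 128: GUGACCauaaaauaaaaagcaaGGUUGC
The hairpin at 505, whose pairs had a mean probability of 1.00, lies in the amplicon overlap. Its 12 stem residues had a median of 0.008 cell-free and 0.060 in cells, with 0 high in either, and its 4 loop residues had 1.64 and 0.924. The hairpins at 389 and 69 had a like split, with low stems and reactive loops. At 389 the stem had a median of 0.086 cell-free and 0.096 in cells and the loop 0.680 and 0.920, and at 69 the stem had 0.007 and 0.110 and the loop 0.948 and 0.971. The loop of the hairpin at 101 has 16 residues, 5 of them high cell-free and 8 in cells. Its stem had medians of -0.014 and 0.206 but held A104, with 2.07 cell-free and 0.786 in cells. The hairpin at 456 had the lowest mean probability of the 5, 0.836, and a smaller gap between loop and stem. Its loop, in which C466 has no reactivity, had medians of 0.276 and 0.322, and its stem 0.024 and 0.140. Of its 14 stem residues 2 were high cell-free and 1 in cells, and of its loop residues 0 and 1. A sixth intron-intron helix, also of 6 pairs, at 94 to 99 with 355 to 360, encloses the partner block and nearly all of the purine run, with a mean probability of 0.928.

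**Figure D4:**
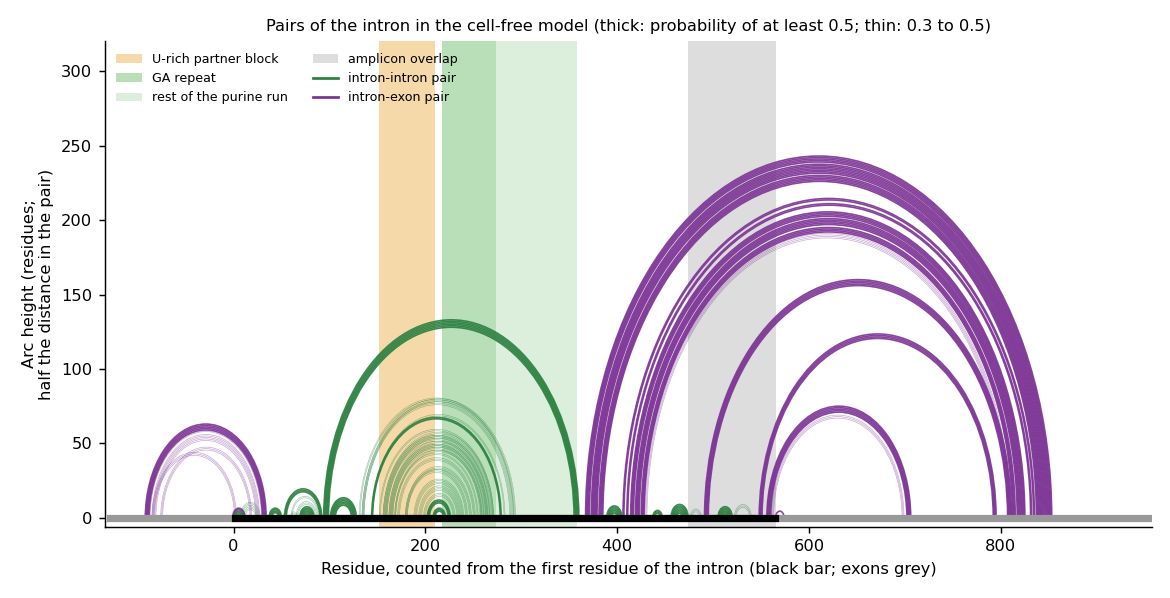
Arcs join residues that pair with a probability of at least 0.5 (thick) or 0.3 to 0.5 (thin) in the cell-free model, green within the intron and purple between intron and exon; the horizontal axis counts from the first residue of the intron and the height is in residues. Thin nested arcs between the partner block and the GA repeat mark the many registers, and a thick band joins the intron to exon 2.

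Of the 12 intron-exon helices the longest had 7 pairs and 7 others had 5, and the 5 to name were taken by length and then by mean probability; 3 of these stack on each other. With 7, 5 and 5 pairs, they join residues 367 to 385 of the intron to residues 402 to 418 of exon 2 across 451 residues, and every one of the 17 exon residues is paired; the lowest pair probability was 0.750. Their grouping was chosen after the values were seen. The 19 residues of the intron arm had a median of 0.202 cell-free and 0.246 in cells. G380 and A372 are the residues of that arm left unpaired. G380 had 3.62 (SE 0.027) cell-free and 1.10 (SE 0.032) in cells, among the 5 largest falls, and A372 had 1.23 and 0.645. The other 2 of the 5 longest join intron residues 30 to 34 with exon 1 residues 38 to 42, and 419 to 423 with exon 2, with mean probabilities of 0.963 and 0.926.

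The exon arm can be set against the spliced RNA, which lacks the intron. Cell-free, the genomic RNA was below both spliced replicates at 16 of the 17 residues and above both at 0, beside 40.9% of all exon residues below both and 34.9% above both. The median was 0.112 in the genomic RNA and 0.246 and 0.282 in spliced replicates 1 and 2. In cells, whose data the labels do not tie to the model, the genomic RNA was below both spliced in-cell replicates at 10 of the 17 and above both at 3, beside 26.1% and 29.8% of all exon residues, and the medians were 0.149 against 0.156 and 0.304. In the model of the joined spliced replicates 9 of the 17 residues were also paired, with partners in the exons. A407 had 0.828 cell-free in the genomic RNA against 1.41 and 1.964, and 0.433 in cells against 0.812 and 1.73. A408 had -0.308 against 0.690 and 0.849 cell-free, and -3.21 in cells; its DMSO rate in the genomic RNA was 1.98% cell-free and 3.73% in cells, against 0.265% and 0.294% in the spliced cell-free replicates, and its 5NIA rates were 1.17% and 1.59%. Cell-free, A407 and A408 were the 2 residues of the arm that passed the size rule against the mean of the spliced replicates, beside 3.43% of all exon residues that passed it downward. Over all 56 exon residues paired with the intron, 38 were below both spliced replicates cell-free (67.9%) and 7 above both. In cells 20 were below both (35.7%) and 14 above both. The arm and these 56 residues were taken from a model that the labels tie to the cell-free data. The cell-free counts are therefore a description.

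**Figure D5:**
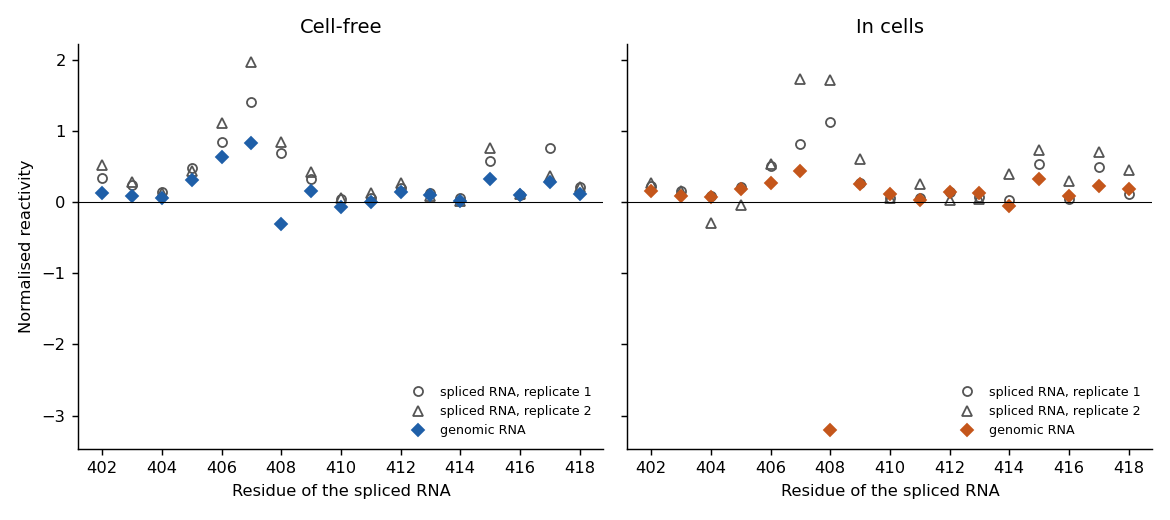
Normalised reactivity at residues 402 to 418 of the spliced numbering in the genomic RNA (filled diamonds) and in both replicates of the spliced RNA (open circles and triangles), cell-free at left and in cells at right. Cell-free, the genomic RNA lies under both spliced replicates at 16 of 17 residues, with A407 at 0.828 against 1.41 and 1.964; in cells it does so at 10 of 17.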

How the data were processed

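SHAPE-MaP profiles of genomic MUNC, with the spliced RNA as a reference, were taken as deposited. Per the labels' protocols, amplicons were made with MUNC-specific primers by reverse transcription that reads adducts as mutations, turned into Nextera XT libraries and read on a MiSeq. For every residue the deposited profiles give, per their headers, counts of mutations and of covering reads and an effective depth. The deposited mutation rate is a fraction of the effective depth. The deposited reactivity is a score: in these profiles it equals the 5NIA minus the DMSO rate times 1 factor per profile, and it has a standard error from the authors. The merged profile of the genomic RNA joins 2 amplicons. Per the file headers, the pairing files give −log10 of the pairing probability, which was turned back into a probability. The aligner, mutation counter, folding program and genome build are not given in the sources used here, so positions are those of the RNA.

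Primer sites, in lower case in the deposited sequence, were left out of all values except the counts of pairs. Both libraries had to reach an effective depth of 1000. With 1 library pair per environment, a residue was called different when its reactivities lay 0.5 or more apart and further apart than both profiles' 95% margins summed, from the standard errors. High reactivity was 0.85 or more, paired meant a summed probability of at least 0.5, and Wilson intervals are at 95%. Intervals of mutation rates cover counting error only, since reads carry no molecular identifiers. Intervals of shares and of areas under the ROC curve are over residues, treat neighbouring residues as independent and hold no counting error of reads. Named residues were the first 6 and last 4 of the intron, the 5 highest in each environment with a DMSO rate under 5%, the 5 largest rises and falls, those with a DMSO rate of at least 5%, and the 3 largest amplicon differences in each environment; named helices were the 5 longest of each class, ties settled by mean probability. Other residues named, and the partner block, purine-run blocks and branch-point match, were chosen after their values were seen. The members and lists were chosen with earlier results of these data known. The size rule was tested on simulated data and the helix search on known input (Python 3.11.15, NumPy 2.4.6, pandas 2.3.3, SciPy 1.17.1). The simulation held counting error alone and changes larger than 0.5, so it does not cover variation between libraries. No column was left unmapped.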

Additional observations from a re-analysis of the deposited data

Results flagged for a closer look

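Of the residues named above, 3 named above had a 5NIA minus DMSO rate difference of opposite sign in the 2 environments, with counting intervals of the 5NIA and DMSO rates apart in each. With 1 library pair per environment the difference between environments was not tested. At U177 it was -0.100 cell-free and 0.949 in cells, in percentage points, which are 1.05 apart. At G1, the first residue of the intron, it was -0.055 and 0.108, or 0.163 apart. At G95 it was -3.07 and 0.336, or 3.41 apart, at DMSO rates of 5.66% and 4.26%. All lie in the stretch read cell-free from amplicon 1 alone.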

How the results depend on the processing

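No paired analysis was possible because the genomic RNA has 1 library pair per environment and no result comes from a test. Of 49 alternatives tried on counts, shares and areas, 31 stayed within the set limits and 18 did not. Asking for a difference of at least 1 left 32 intron residues in place of 134 between environments (15 higher and 17 lower in cells), 11 in place of 60 in the purine run (8 higher and 3 lower), and 3 and 0 between amplicons cell-free and in cells. Scaling both profiles to an equal mean kept the count of 134 but with 78 higher and 56 lower. In the amplicon overlap, 12 intron residues differed between environments, 7 with amplicon 2 alone and 20 with amplicon 1 alone; these alternatives, those of the purine run, the in-cell pairing areas and the in-cell exon comparison were chosen after seeing the data. Without residues whose cell-free 5NIA rate was below DMSO, 107 intron residues passed (62 higher, 45 lower), and in the purine run 39 higher and 7 lower. At a probability of at least 0.3 there were 134 intron-intron pairs in place of 58. The mean rate difference, in percentage points, was 0.491 cell-free as a median, 1.08 without high DMSO rates, 1.16 without the GA repeat and 1.05 from amplicon 1 alone; in cells it was 0.264, 0.354, 0.361 and 0.338. A threshold of 0.7 gave high shares of 21.25% cell-free and 32.4% in cells. The exon arm was below both spliced replicates at 16 residues cell-free and 10 in cells. The 10 largest rises and falls between environments passed the size rule under all 4 alternatives run for them. Only scaling to an equal mean could have changed this outcome. The smallest of the 10 differences was 1.35, so asking for at least 1 could not remove any. The root of summed squared errors gives a narrower margin, and amplicon 1 alone holds the same reads at these residues. The cause of these shifts was not tested, beyond what each alternative does by construction. Every intron residue was read more deeply than 10000, so that depth minimum could change nothing.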
